A study of Mus musculus with 2 samples.

Results

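Complement is a blood and tissue defence system whose proteins are made by liver, macrophages, adipocytes and stromal cells. The genes described here are 8 complement components and regulators, namely *C3*, *C4b*, *C2*, *Cfb*, *Serping1*, *Masp1*, *Cd55* and *Cd59a*, out of 22446 gene symbols on the array. They were taken as every probe set whose gene annotation includes a member's symbol, which gave 18 probe sets. The RNA came from BMSCs-adipo (labelled mMSC-Adipo) and BMSCs-osteo (labelled mMSC-Bone), clonal murine bone marrow stromal lines that immortalized spontaneously and that were named for differentiating into adipocytes or osteoblasts. Both lines are C57BL/6 in background and carry the genotype Beta-actin-GFP+ ApoE(-/-), so the loss of ApoE is shared by both sides of every comparison. Each line is 1 clone and was cultured without differentiation stimuli in DMEM, with 12% FBS per the labels, a share for which the study's methods give another value. For each line 3 cultures were pooled onto 1 array, so no error within a line and no test between the lines could be computed, and every difference below is a single value. Differences are given on the log2 scale as BMSCs-adipo minus BMSCs-osteo, where 1 is 2-fold.

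Complement is started by the classical pathway through C1, by the lectin pathway through sugar-binding proteins and their MASP proteases, and by the alternative pathway on surfaces. C1 and the MASP proteases cut C4 and C2, which together form a convertase, and factor B joins C3b to form the convertase of the alternative pathway. Both convertases cut C3, the central component, and the cascade ends in the membrane attack complex. Cells protect themselves with inhibitors in plasma, such as the C1 inhibitor, and on the membrane, such as CD55 and CD59. In fat tissue, a fragment of C3 is also known as acylation stimulating protein, and factor D was first described as adipsin, a protease secreted by adipocytes.

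*C3* had a log2 level of 9.34 in BMSCs-adipo and of 4.35 in BMSCs-osteo. The level in BMSCs-osteo lay just above 4.20, the brightness filter used here, which is the 30th percentile of all genes by mean level, so the transcript was bright on the array of BMSCs-adipo and near the dim end on the other. The difference was 4.998, or about 32-fold, and it ranked 27 among the positive differences of the 15713 genes past the filter. Without detection calls the level in BMSCs-osteo cannot be told from background, so the fold and the rank rest on that dim value. *C3* is read by 1 probe set, so no other probe set bears on this value. Adding an offset of 32 on the linear scale, which shrinks differences of dim signals, brought it to 3.70.

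*Cd59a*, which encodes a membrane-anchored inhibitor of the membrane attack complex, was the other gene that stood far apart. Its brighter probe set had a log2 level of 8.17 in BMSCs-adipo and of 6.11 in BMSCs-osteo, a difference of 2.06 or 4.18-fold. The second probe set had levels of 7.23 and 4.91 and a difference of 2.32, so both probe sets were higher in BMSCs-adipo by a like amount. The difference ranked 332 among the positive ones, and 2.11% of the genes past the filter were as far or farther on that side. The mouse paralog *Cd59b* had no probe set in the annotation, and whether its transcript adds to the *Cd59a* signal was not tested.

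The promoters of *C3* and *Cd59a* are shown because these genes carry the differences between the lines. They are RefSeq windows of 250 bases before to 50 bases after the gene start in GRCm38.p6, at chr17:57228087-57228386 on the minus strand for *C3* and at chr2:104095551-104095850 on the plus strand for *Cd59a*. Capitals mark matches to any of 4 motifs searched on both strands, which were TTCNNNGAA for STAT factors, TTNNGCAA for C/EBP factors, GAAA followed by any pair of bases and GAAA for IRF factors, and GGG followed by any pair of bases and TTTCC for NF-kB.
C3: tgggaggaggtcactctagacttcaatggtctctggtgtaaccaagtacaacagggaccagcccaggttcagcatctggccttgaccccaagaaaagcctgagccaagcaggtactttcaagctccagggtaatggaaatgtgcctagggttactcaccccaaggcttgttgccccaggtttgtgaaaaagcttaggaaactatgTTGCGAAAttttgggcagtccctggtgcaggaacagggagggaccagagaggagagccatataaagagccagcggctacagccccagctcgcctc
Cd59a: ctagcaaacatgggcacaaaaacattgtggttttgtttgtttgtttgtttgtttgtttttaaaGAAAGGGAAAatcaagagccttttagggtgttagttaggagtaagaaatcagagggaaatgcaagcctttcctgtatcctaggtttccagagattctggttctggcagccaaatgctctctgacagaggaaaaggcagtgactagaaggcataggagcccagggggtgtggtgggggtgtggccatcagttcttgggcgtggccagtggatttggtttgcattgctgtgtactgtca

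The *C3* window held 1 match, TTGCGAAA, the C/EBP letters on the opposite strand, starting 45 bases before the gene start, and such letters are found in 10.8% of all 32851 promoters of the table. The *Cd59a* window held 1 match to the IRF letters, GAAAGGGAAA, starting 187 bases before the gene start, and 3.44% of all promoters hold them. The other motifs had no match in these windows, and the *Cd55* window had none of the 4. Letters that match are a description of the sequence and not a measured binding site.

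**Figure D1:**
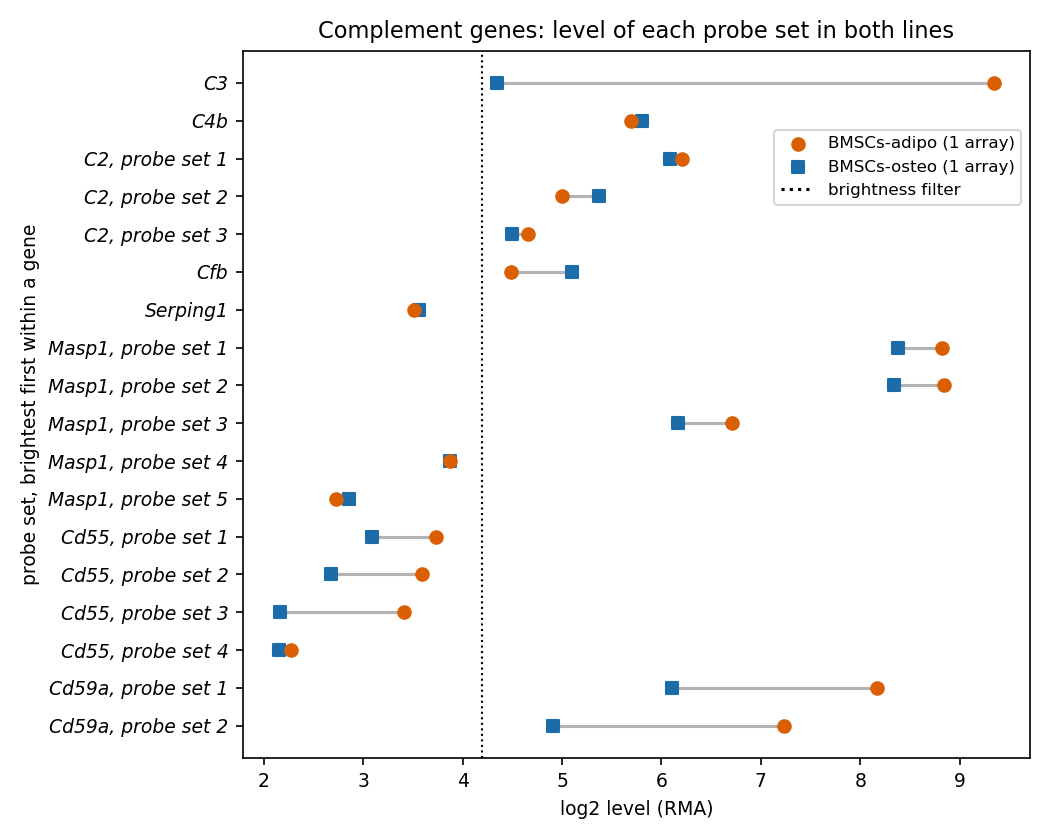
Log2 level (RMA) of each of the 18 probe sets of the 8 complement genes in BMSCs-adipo (circles, 1 array) and BMSCs-osteo (squares, 1 array), with the brightness filter at 4.20 as a dotted line. The gap is widest for C3 (9.34 against 4.35), both probe sets of Cd59a are higher in BMSCs-adipo, and every probe set of Cd55 and Serping1 lies left of the filter.

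The components that act just before C3 were close in both lines. *C2*, the serine protease that pairs with C4, had 3 probe sets. The brightest had log2 levels of 6.20 for BMSCs-adipo and 6.08 for BMSCs-osteo (difference 0.12), the next 4.998 and 5.37 (-0.37), and the dimmest 4.66 and 4.50 (0.16). The probe sets thus differed in sign. The brighter pair carry the suffix that Affymetrix gives to probe sets with probes that can match other transcripts, and the dimmest does not.

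*C4b*, which encodes the C4 protein that carries the convertase to a surface, has a single probe set, which *C4a* shares. Its log2 level was 5.69 in BMSCs-adipo and 5.80 in BMSCs-osteo, a difference of -0.11, and the shares of the transcripts of these genes cannot be told apart. *Cfb*, which encodes factor B of the alternative pathway, was the member with the largest difference toward BMSCs-osteo. It had a log2 level of 4.49 in BMSCs-adipo against 5.10 in BMSCs-osteo, a difference of -0.62 or 1.53-fold, and 13.0% of the genes past the filter were as far or farther on that side. With the offset of 32 on the linear scale the difference was -0.29.

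*Masp1*, which encodes proteases of the lectin pathway, was above the filter in both lines with 3 of its 5 probe sets. The brightest of its 5 probe sets had log2 levels of 8.82 for BMSCs-adipo and 8.38 for BMSCs-osteo, a difference of 0.44. The second had 8.85 and 8.33 (0.51), and the third had 6.71 and 6.16 (0.54). The 3 probe sets above the filter therefore differed by 0.44 to 0.54, a narrow range, and each stayed within 2-fold. The other probe sets were dim, at 3.88 on both arrays and at 2.72 and 2.86, with differences of 0 and -0.14. The 3 above the filter carry suffixes that Affymetrix gives to probe sets whose probes can match several transcripts, and the dim ones do not. The identical values are not particular to this gene, as 2096 of the 45101 probe sets have equal values on both arrays. Which of the splice forms of *Masp1* each probe set reads is not given in the files.

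*Serping1*, which encodes the C1 inhibitor, the main plasma inhibitor of the C1 and MASP proteases, lay below the filter in both lines. Its single probe set had a log2 level of 3.51 in BMSCs-adipo against 3.56 in BMSCs-osteo, a difference of -0.05. *Cd55*, which encodes decay-accelerating factor, an inhibitor of the convertases, was also below the filter with all 4 of its probe sets. Their log2 levels were 3.73, 3.59, 3.41 and 2.28 in BMSCs-adipo, against 3.09, 2.68, 2.17 and 2.15 in BMSCs-osteo. All 4 differences were positive, at 0.64, 0.91, 1.25 and 0.13, and the last belongs to a probe set shared with *Cd55b*. At such levels the offset of 32 brought the difference of the brightest probe set to 0.16. Both genes were left out of the counts by the filter, and without detection calls their signal cannot be told from background.

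Of the 8 genes, 6 passed the filter and 2 did not, and each of the 6 had a level at or above the filter on both arrays. By the 2-fold rule, *C3* and *Cd59a* (2 of 6) were higher in BMSCs-adipo, where 7.75% of all genes past the filter met the rule. None of the 6 passed the rule toward BMSCs-osteo, where 6.46% of all genes met it. The remaining *C2*, *C4b*, *Cfb* and *Masp1* stayed within 2-fold. The median difference of the 6 was 0.28, beside -0.02 for all genes past the filter. The genes were chosen with results of these arrays known, so the counts describe them and are no test. Both *C3* and *Cd59a* also passed a 4-fold rule.

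**Figure D2:**
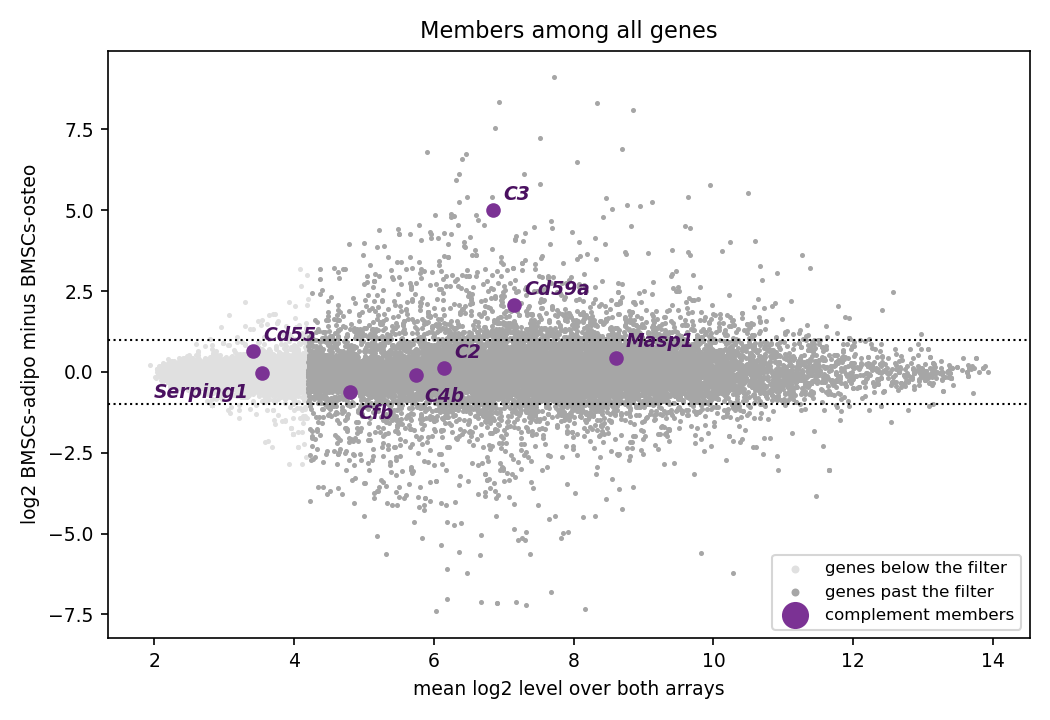
Difference in log2 level (BMSCs-adipo minus BMSCs-osteo) against the mean log2 level over both arrays for all 22446 genes, with the 8 complement genes labelled and dotted lines at 2-fold. C3 (4.998) and Cd59a (2.06) lie above the upper line, and C2, C4b, Cfb and Masp1 lie within the band of most genes.

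*C4b*, *Cfb* and *C2* lie near each other in the major histocompatibility complex of chromosome 17, and *C3* lies elsewhere on the same chromosome. To see whether the differences were shared along the chromosome, the nearest 5 measured protein-coding genes on each side were read in RefSeq order. Of the 10 neighbours of *C3*, 7 passed the filter, and their differences ran from -0.40 (*Tubb4a*) to 0.19 (*Gpr108*), with a median of -0.05. The genes directly beside it were *Trip10* at -0.14 and *Tnfsf14* at -0.20, the latter below the filter. No neighbour past the filter shared the difference of *C3*. However, only 0.17% of all genes past the filter were as far or farther on that side. So few neighbours therefore cannot show whether the difference was shared along the chromosome. Of the neighbours past the filter, *Dennd1c*, *Tnfsf9*, *Vav1* and *Adgre1* were dim on both arrays, with levels of 4.22 to 4.46 near the filter of 4.20. All 15 genes around and between *C4b*, *Cfb* and *C2* passed the filter, with a median of 0.18, beside -0.02 for all genes past it. None was 2-fold apart, where 7.75% of all genes met the rule toward BMSCs-adipo and 6.46% toward BMSCs-osteo. At these shares, 15 genes cannot show whether the locus differs from other genes. The 15 ran from -0.38 (*Cyp21a1*) to 0.79 (*Hspa1b*). *Cfb*, dim on both arrays (4.49 and 5.10), lay below all of them at -0.62, while *Nelfe* on one side of it had 0.07 and *C2* on the other 0.12.

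**Figure D3:**
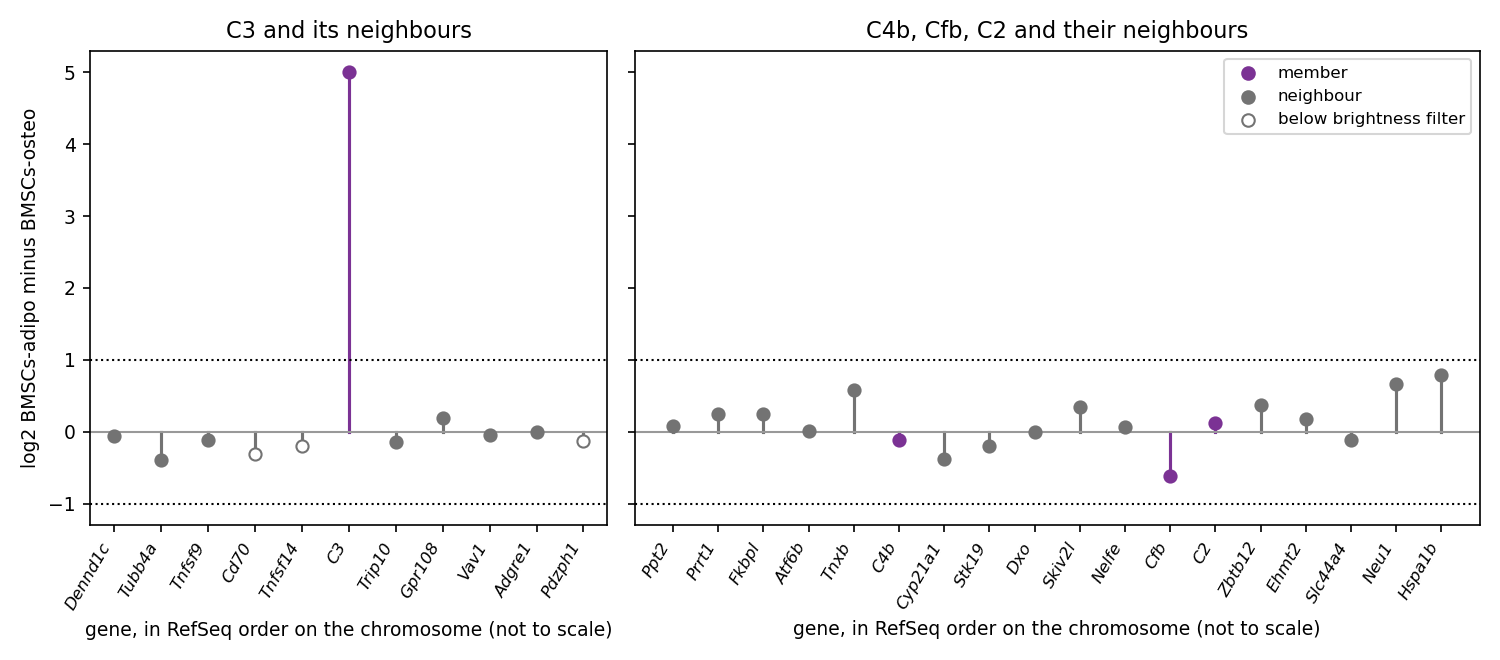
Difference in log2 level (BMSCs-adipo minus BMSCs-osteo) of C3 (left) and of C4b, Cfb and C2 (right) with their measured neighbours, in RefSeq gene order and not to scale. C3 is at 4.998 and its neighbours lie between -0.40 and 0.19. No gene on the right is 2-fold apart, where 7.75% (toward BMSCs-adipo) and 6.46% (toward BMSCs-osteo) of all genes past the filter are.

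A wider list of 56 complement genes, compiled for this report, placed these values in the whole cascade. Of these, 52 were measured and 30 passed the filter. The 2-fold rule was passed by 6 of the 30 toward BMSCs-adipo (*C3*, *Cd59a*, *Clu*, *Cfd*, *C1s1* and *Cd93*) and by 1 toward BMSCs-osteo, beside 7.75% and 6.46% of all genes past the filter. *Cd93* passed the filter only through its level in BMSCs-adipo. The median difference of the 30 was 0.077, and it became -0.045 without the brightness filter and 0.38 with a filter at the 50th percentile. *C4a* and *C4b* entered these counts with the same probe set. Outside the 8 genes, 24 passed the filter, and the 2-fold rule was passed by 4 on the side of BMSCs-adipo and by 1 on the other, at a median difference of 0.047, against the same shares of all genes.

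Among initiators, the C1 proteases were bright in both lines. *C1s1*, which encodes the C1s protease, had a log2 level of 10.4 in BMSCs-adipo against 9.29 in BMSCs-osteo (difference 1.08), and *C1ra*, its partner, had 9.93 and 9.08 (0.85). The C1q chains *C1qa*, *C1qb* and *C1qc*, the antibody-binding part of C1, were below the filter. In the lectin pathway no gene was 2-fold apart, and the sugar-binding *Mbl1* had levels of 4.44 and 4.46. The bright signal of *Masp1* stood beside a bright one of *Colec12* (9.19 and 8.96) and dim ones of *Mbl1*, *Fcna* (4.39 and 4.31) and *Masp2* (4.47 and 4.63). However, levels of different probe sets carry different probe effects and cannot be ranked.

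In the alternative pathway only *Cfd* was 2-fold apart. This gene, which encodes factor D (adipsin), the protease that cuts factor B, had a log2 level of 6.18 in BMSCs-adipo against 4.38 in BMSCs-osteo (1.80). It has 1 probe set, and the level in BMSCs-osteo lies near the filter of 4.20, so the difference rests on a dim value. The substrate gene *Cfb*, dim on both arrays, was within 2-fold at the -0.62 given above. *Cfp*, which encodes properdin, the stabilizer of the alternative convertase, had 7.27 and 6.89 (0.38) with a probe set shared with another gene, and a difference of 0.78 with its own. Of the terminal components that build the membrane attack complex, *C6*, *C8b* and *C8g* passed the filter and differed by 0.02, -0.21 and 0.39. The gene of C5 (*Hc*) and *C8a* and *C9* were below it.

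Among regulators, *Clu*, which encodes clusterin, a secreted chaperone that also blocks assembly of the attack complex, had a log2 level of 10.4 in BMSCs-adipo against 6.47 in BMSCs-osteo (3.96), and its 4 probe sets gave differences of 3.96 to 5.81. On the membrane, *Cr1l*, the rodent convertase inhibitor Crry, was bright and level at 9.06 and 9.10 (-0.04), and *Cd46* had 5.23 and 5.04. *Cd59a* was therefore the membrane regulator past the filter that was 2-fold apart, beside *Cr1l*, *Cd46*, *Susd4* (-0.40) and *Csmd1* (-0.32), which were not. Among receptors, the C3a receptor *C3ar1* had levels of 4.42 and 4.66. *Cd93*, once proposed as a receptor of C1q, had 4.84 and 3.64 (1.20), with other probe sets from -0.21 to 2.16, and the level in BMSCs-osteo lies below the filter of 4.20, so that it was counted only through the line where it is high. *C1qbp*, a mostly mitochondrial protein that binds C1q, had 11.4 and 12.1 (-0.73).

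**Figure D4:**
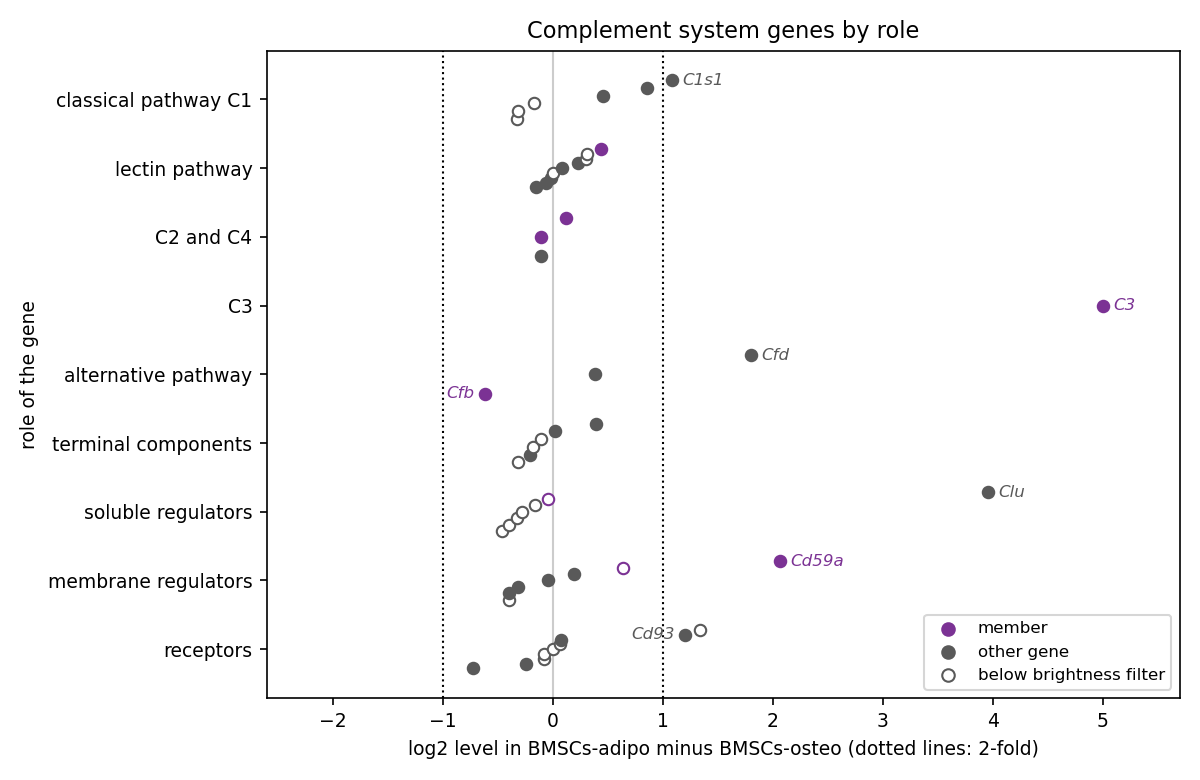
Difference in log2 level (BMSCs-adipo minus BMSCs-osteo) of measured complement genes by role, with the 8 genes described here in purple, genes below the brightness filter as open circles and dotted lines at 2-fold. Past the filter, C3, Clu, Cd59a, Cfd, Cd93 and C1s1 lie right of the upper line and Cfb at -0.62 lies between the lines, and the open circle right of the upper line is Itgb2 (1.34), below the filter.

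Complement genes are known to respond to interferons, to inflammatory cytokines and to C/EBP factors. Of 16 genes for such factors and receptors, all past the filter, 7 passed the 2-fold rule toward BMSCs-adipo and 1 toward BMSCs-osteo, beside 7.75% and 6.46% of all genes. *Cebpa* differed by 4.53, *Stat2* by 2.97 and *Irf9* by 2.23, while *Cebpb* differed by -1.12. The 3 probe sets of *Cebpb* ran from -1.22 to 0.04. *Il1r1*, counted toward BMSCs-adipo at 1.03, had another probe set at -0.15. *C2*, *C4b*, *Cfb* and *Serping1*, which interferons induce in many cells, had differences of 0.12, -0.11, -0.62 and -0.05 on the same arrays. Of these, *Serping1* lay below the filter in both lines and *Cfb* was dim on both arrays, so their values say little. Of 12 acute phase genes, which liver and fat cells make together with C3, 6 passed the filter and 2 the 2-fold rule toward BMSCs-adipo, beside the same 7.75% of all genes. These were *Hp* (8.11), haptoglobin, and *Cp* (3.04), ceruloplasmin, while *Saa3* differed by -0.22. Whether any of these genes bears on the level of a complement gene was not tested.

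Lineage markers followed the names of the lines. All 5 measured adipocyte markers passed the 2-fold rule toward BMSCs-adipo, with differences of 4.05 to 9.10, beside 7.75% of all genes past the filter. *Adipoq* and *Fabp4* had levels below the filter in BMSCs-osteo, and the 4 probe sets of *Fabp4* ran from 0.47 to 6.12. Toward BMSCs-osteo, 5 of 7 osteoblast markers passed the rule, beside 6.46% of all genes, although *Runx2* (0.28) and *Bglap* (0.10) did not. Macrophages also make complement. Of 10 macrophage and leukocyte markers, 7 passed the filter, with a median difference of 0.90, 5 positive and 1 negative. The list holds *Cd53*, which the study uses as a marker of adipocytic progenitors. Of these 7, 2 passed the rule toward BMSCs-adipo, *Cd14* (1.79) and *Cd68* (1.41), beside the same 7.75% of all genes. *Cd53* (0.92), *Lyz2* (0.90), *Fcgr1* (0.40), *Adgre1* (0) and *Csf1r* (-0.32) stayed within 2-fold. The lowest probe set of *Fcgr1* differed by -0.37 and that of *Csf1r* by -1.30. *Cd68* had a level of 3.99 in BMSCs-osteo and passed the filter only through the line where it is high. The summed level of the 10 was 9.06 in BMSCs-adipo and 8.26 in BMSCs-osteo on the log2 scale, with single levels of 2.56 to 7.55 and of 2.78 to 6.05. The defining leukocyte gene *Ptprc* (CD45) was below the filter in both lines, at 2.56 and 2.78. The part of these markers in the difference of *C3* was not tested. Of 5 endothelial and of 5 hepatocyte markers, 2 each passed the filter. None was 2-fold apart, beside 7.75% and 6.46% of all genes past the filter, and so few genes say little about these cell types. The summed log2 levels in BMSCs-adipo and BMSCs-osteo were 6.57 and 6.66 for the endothelial and 7.14 and 7.35 for the hepatocyte markers. In pooled cultures, fewer cells with a transcript and less of it per cell cannot be told apart.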

How the data were processed

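RNA of BMSCs-adipo and BMSCs-osteo (8 ug per array) was read on 1 Affymetrix array per line. The authors' deposited values are log2 levels made by RMA (oligo package per the labels). Versions and settings are not stated. RMA corrects background, normalizes between arrays and summarizes probe sets. The authors' table also holds a log2 fold change, which was not used, and the series matrix holds identical values. Of 45101 probe sets, 64 controls and 5368 without a gene were left out, and 1479 that name several genes counted for each. A gene took its probe set with the highest mean, and genes under the 30th percentile of that mean were filtered out, which kept 15713 of 22446. The number of arrays limits the precision. No detection calls were used.

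The genes and lists were chosen with earlier results of these data known. Named were the 8 genes, genes of the wider complement list that were 2-fold apart or define a role, up to 3 genes of other lists with the largest differences, the neighbours at the extremes or next to a member, and further genes named after their values were seen. By Entrez ID, 8 of 8 genes and 52 of 52 measured list genes matched RefSeq (GRCm38.p6). Of the 8, 3 had a promoter in the table used (*C3*, *Cd55*, *Cd59a*). Counting was tested on simulated data with 185 planted differences among 14497 genes, of which 100% were recovered. The planted differences lay beyond the 2-fold rule by far more than the added noise, so full recovery was built in. It checks only the counting. A gene of the wider list is not reported here by name or in the plots by role, and remains in the counts and medians of that list. Alternatives are given in the closing section. Python 3.11.15, numpy 2.4.6, pandas 2.3.3, statsmodels 0.14.6 (loess, span 0.3) and matplotlib 3.10.9 were used.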

Additional observations from a re-analysis of the deposited data

How the results depend on the processing

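Of 124 recomputed values of 15 results, 109 stayed within their limits. These limits were 0.41 (the SD among probe sets of the same gene, pooled over genes) for a gene, 0.074 for the list median and 1.5 times for a count. Part of the 109 could not move, because the series matrix values are identical and *C3*, *C4b*, *Cfb* and *Serping1* have 1 probe set each. The count is therefore no measure of robustness. No difference of 2-fold or more changed sign. *C3* ranged from 3.70 (offset of 32) to 5.04 (median of all genes subtracted), and *Cd59a* from 1.67 to 2.32. *Cd55* fell to 0.16 with the offset. With the next brightest probe set, chosen after the data were seen, *C2* had -0.37. With a 1.5-fold rule 1 of the 8 genes (*Cfb*) counted toward BMSCs-osteo. The wider list gave 3 genes toward BMSCs-adipo with a 4-fold rule, and toward BMSCs-osteo 0 with a 4-fold rule, 3 with a 1.5-fold rule and 0 with a filter at the 50th percentile. Its median was -0.045 without a filter and 0.38 with that filter. Over all genes, 2508 and 2199 were past a 1.5-fold rule toward BMSCs-adipo and BMSCs-osteo, 351 and 297 past a 4-fold rule, and 657 toward BMSCs-osteo with the offset. *C4b* has no value from probe sets that name 1 gene. No paired analysis was possible because each line has 1 array and the labels give no replicate numbers. *Serping1* and *Cd55* are limited by signal near background.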
